A study of Mus musculus with 4 samples.

Results

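The insulin-like growth factor 1 (IGF1) axis was examined in neurospheres mutant for Dll1 through 8 genes: the ligand Igf1, its receptor Igf1r, and the binding proteins Igfbp2, Igfbp3, Igfbp4, Igfbp5, Igfbp6 and Igfbp7. These genes were taken by the gene name that the array files give each probe, control spots left out, which gave 14 of 41174 probes and 8 of 23109 genes tested. All 14 probes passed the filter on dim signals. Neurospheres are floating cultures of neural stem cells and their progeny, here from mice of a mixed 129/Sv and C57BL/6 background, kept with EGF and without serum. RNA of the mutant lines Dll1-3 and Dll1-5 was each compared with wild-type RNA on 2 arrays of 2 colours, with the dyes exchanged between them. Dll1 encodes a ligand of Notch receptors. The labels do not say which Dll1 mutation each line carries, how many mice stand behind it or their age, and each replicate was RNA pooled from 3 sources that the design text does not describe further. Wild-type RNA is labelled alike on all arrays, so whether the lines shared a wild-type pool is unsettled.

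IGF1 is a secreted growth factor that signals through the receptor tyrosine kinase IGF1R to the PI3 kinase and AKT pathway and promotes growth and survival of neural progenitors. The IGF binding proteins are secreted too. They hold IGFs in the extracellular space, limit or prolong their action, and are released from them by proteases such as pappalysin. IGFBP2 is abundant in developing brain and in gliomas, IGFBP6 prefers IGF2, and IGFBP7 binds IGFs only weakly and is best known from blood vessel walls.

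Each value below is the log2 of mutant over wild-type signal, so that 1 is a doubling. Both arrays of a line were taken to carry the same pooled RNA, which makes each line 1 replicate, and n = 2 lines for a mean over both. The ± after a line's value is the distance of its arrays from their mean, and is technical on that reading. The error of a mean over both lines is the SD between them, and p-values measure the spread between these samples only, without that of wild-type pools. Dll1 itself had values of -3.31 and -3.22 in Dll1-3 and of -1.65 and -1.64 in Dll1-5. The list of progenitor markers for neurospheres held 10 names for 9 genes, as Blbp is another name of Fabp7. All 9 genes were measured, 9 of them well above background on all wild-type channels and 8 on all mutant channels. The median of these 9 was -0.57 in Dll1-3 and -0.32 in Dll1-5, and 2 of them, Sox2 and Pax6, were at least halved on all 4 arrays. The 7 neuron markers had medians of -1.02 and -1.01, with a summed signal of 14536 to 15204 in wild type, 3034 to 3488 in Dll1-3 and 5774 to 6067 in Dll1-5. The part of these shifts in the results below was not tested. As the RNA came from whole cultures, fewer cells of a type and less RNA per cell cannot be told apart.

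Igfbp2 and Igfbp4 were higher in both mutant lines, and Igfbp7 was lower in Dll1-3 and slightly above wild type in Dll1-5. Line means of Igf1 and Igfbp6 lay within 0.07 of wild type on the log2 scale, Igfbp3 had means of 0.44 (Dll1-3) and -0.10 (Dll1-5), and Igf1r and the brighter Igfbp5 probe lay on opposite sides of wild type in the 2 lines by smaller amounts. Of the 8 genes, 2 (Igfbp2 and Igfbp4) were at least doubled on all 4 arrays, where 1.69% of all genes tested were, and 0 were at least halved on all 4, where 2.75% were. Above wild type on all 4 arrays, by any amount, were 2 of the 8, beside 24.1% of all genes, and below it 0, beside 26%. In limma's fit over both lines 0 of the 8 passed an adjusted p of 0.05, as did 0 of 23109 genes (0%), the smallest adjusted p being 0.0755. At an unadjusted p under 0.05 in the same fit there were 2 of the 8, Igfbp2 and Igfbp4, beside 27.5% of all genes. The median over the 8 genes was 0.01 in Dll1-3 and 0.29 in Dll1-5, beside 0.0023 and 0.0038 over all genes.

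**Figure D1:**
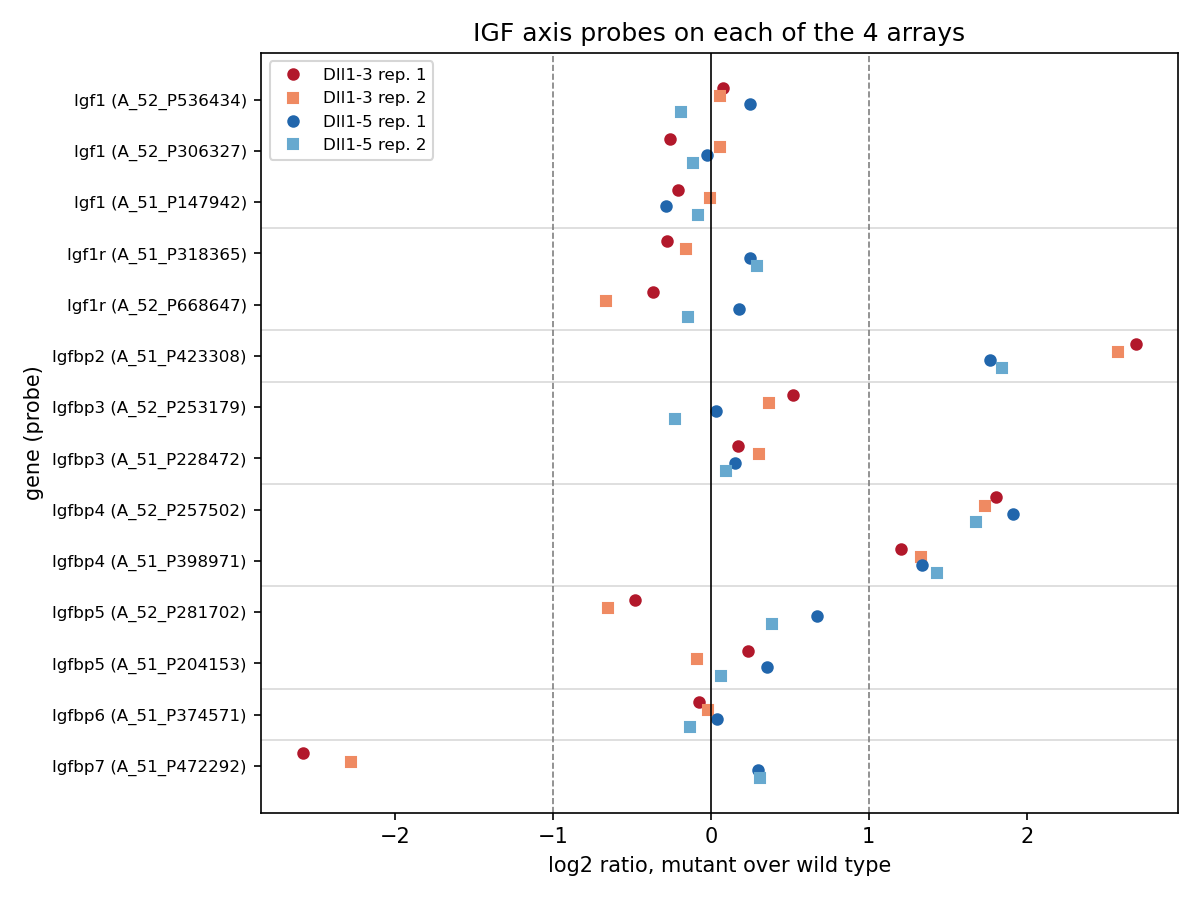
Log2 ratio of mutant over wild type (horizontal axis) of each of the 14 probes (vertical axis), 1 point per array, with dashed lines at a doubling and a halving. The Igfbp2 probe and both Igfbp4 probes lie beyond a doubling on all 4 arrays, and the Igfbp7 probe lies at -2.58 and -2.28 in Dll1-3 but at 0.30 and 0.31 in Dll1-5.

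Igfbp2 had the largest increase over both lines. Its probe (A_51_P423308) lies on chromosome 1 from 73153786 to 73153845, in coordinates of the array files, which name no genome build. Normalised signals, in arbitrary units that include the offset of 50 added to every spot, were 3681, 4021, 3150 and 2922 for wild-type RNA on the 4 arrays. For mutant RNA they were 23764 and 24023 in Dll1-3 and 10716 and 10511 in Dll1-5. Every mutant signal was above every wild-type signal, and the Dll1-3 signals were above those of Dll1-5. No spot of the probe was marked as saturated (0 of 4 mutant and 0 of 4 wild-type signals).

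The Igfbp2 log2 ratio was 2.69 and 2.58 in Dll1-3, a mean of 2.63 ± 0.06, or 6.21-fold. In Dll1-5 it was 1.77 and 1.85, a mean of 1.81 ± 0.04, or 3.50-fold. The increase was larger in Dll1-3 by 0.83 on the log2 scale, with no overlap between the arrays of the 2 lines. Over both lines the mean was 2.22 (SD 0.59, n = 2), which placed Igfbp2 at rank 47 of 23109 genes from the highest, and limma's adjusted p was 0.0789. With 1 array left out, the mean was 2.19 without Dll1-3 replicate 1 and 2.25 without Dll1-3 replicate 2. It was 2.24 without Dll1-5 replicate 1 and 2.20 without Dll1-5 replicate 2. In each of these 1 line rested on 1 dye orientation, so its value was not balanced for dye. Over 18 alternatives limma's adjusted p ran from 8.05e-04 to 0.107, the latter with the deposited table. The low end came from a fit with arrays as separate samples, which counts repeats of the same pools as replicates on the reading used here.

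Choroid plexus is known to express Igfbp2. Of 7 choroid plexus markers 6 were measured (Ttr did not pass the filter on dim probes), with a median of 0.03 in each line. Only 1, Sostdc1, a secreted BMP antagonist, was at least 2-fold higher on all 4 arrays, at 1.06 in Dll1-3 and 1.57 in Dll1-5. The rest lay between -0.08 and 0.07 in Dll1-3 and between -0.11 and 0.37 in Dll1-5. The summed signal of the list was 711 to 785 in wild type, 809 to 841 in Dll1-3 and 918 to 935 in Dll1-5, from dim probes whose signals include the offset. Astrocytes are known to express Igfbp2 too, and of 8 astrocyte markers 0 were doubled and 2, Apoe and Gja1, halved on all 4 arrays. The median was -1.45 in Dll1-3 and -0.78 in Dll1-5. Single markers ran from -3.95 and -3.55 (Apoe) to -0.02 and 0.19 (Aqp4). The summed signal was 73645 to 100534 in wild type, 10507 to 11741 in Dll1-3 and 18338 to 20946 in Dll1-5. Such a sum follows its brightest probes, and the share of each marker in it was not examined. The part of these cell types in the Igfbp2 result was not tested.

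Igfbp4 encodes a binding protein that mostly restrains IGF action until pappalysin cleaves it. Its brighter probe (A_52_P257502, chromosome 11 from 98873108 to 98873167) gave wild-type signals of 143, 151, 160 and 188. Mutant signals were 498 and 502 in Dll1-3 and 603 and 601 in Dll1-5, so all mutant signals exceeded all wild-type signals. The log2 ratios were 1.81 and 1.73 in Dll1-3 and 1.92 and 1.68 in Dll1-5. Line means of 1.77 ± 0.04 and 1.80 ± 0.12, or 3.41-fold and 3.47-fold, differed by less than the distance between the arrays of Dll1-5. The mean over both lines was 1.78 (SD 0.02, n = 2; limma adjusted p = 0.0755).

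The second Igfbp4 probe (A_51_P398971, chromosome 11 from 98869365 to 98869424) was dimmer and gave the same direction on every array. Its wild-type signals were 103, 86, 103 and 85 and its mutant signals 238, 216, 260 and 230. Its log2 ratios were 1.21, 1.33, 1.34 and 1.43, with a mean over both lines of 1.33 (SD 0.08, n = 2). Wild-type Igfbp4 signals were low, and the offset of 50 narrows such ratios. With the scanner software's own ratios, which have no such offset, the brighter probe reached 2.49 (Dll1-3) and 2.39 (Dll1-5), and the mean over both lines passed the threshold (limma adjusted p = 0.0424). In the setting reported, the mean was 1.77 without Dll1-3 replicate 1 and 1.80 without Dll1-3 replicate 2. It was 1.72 without Dll1-5 replicate 1 and 1.84 without Dll1-5 replicate 2. Here too 1 line was then not balanced for dye. The adjusted p ran from 1.34e-04 to 0.102 over the 18 alternatives, and its low end too came from a fit with arrays as separate samples.

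**Figure D2:**
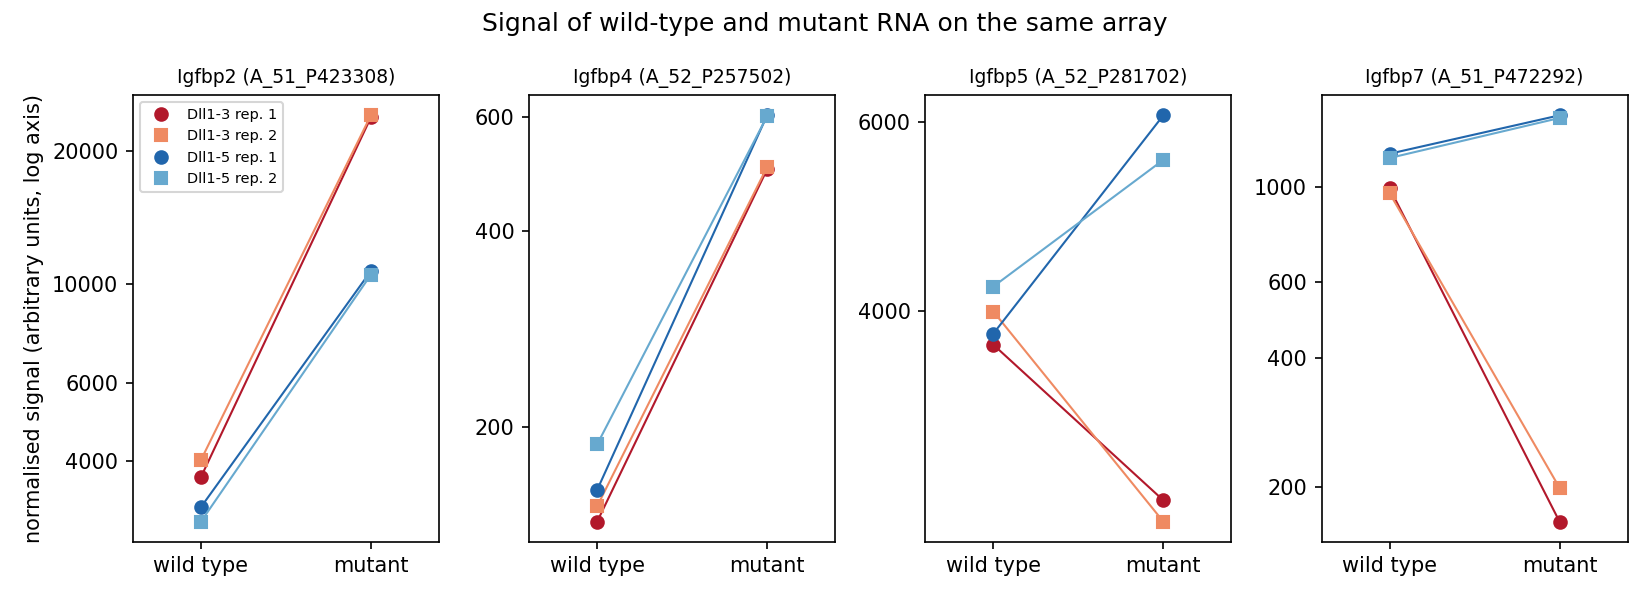
Normalised signal (arbitrary units, log axis, a scale of its own in each panel) of wild-type and mutant RNA for the brightest probe of Igfbp2, Igfbp4, Igfbp5 and Igfbp7, with a line joining the 2 channels of an array. All 4 lines go up for Igfbp2 and Igfbp4, while for Igfbp5 and Igfbp7 the Dll1-3 lines go down and the Dll1-5 lines go up.

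Igfbp7 separated the lines most. Its probe (A_51_P472292, chromosome 5 from 76593576 to 76593635) had wild-type signals of 994 and 968 beside Dll1-3 and of 1196 and 1169 beside Dll1-5. The Dll1-3 mutant signals were 166 and 199, far below all wild-type signals, and the Dll1-5 mutant signals were 1470 and 1449, above all of them. The log2 ratio was -2.58 and -2.28 in Dll1-3, a mean of -2.43 ± 0.15, so that wild type was 5.39-fold higher. In Dll1-5 it was 0.30 and 0.31, a mean of 0.30 ± 0.01. Igfbp7 was the only one of the 8 genes at least halved on both Dll1-3 arrays, as were 6.1% of all genes, and 0 of the 8 were at least halved on both Dll1-5 arrays, as were 3.71%. The mean over both lines, -1.06 (SD 1.93, n = 2; limma adjusted p = 0.527), describes neither line.

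The lines differed for Igfbp7 by 2.73 on the log2 scale, and 0.156% of all genes differed by more. Across the 18 alternatives the Dll1-3 value ran from -2.94 to -2.28 and the Dll1-5 value from 0.30 to 0.38. Blood vessel and mural cells are known to express Igfbp7, so their markers were read beside it. Of 8 endothelial markers 7 were measured (Pecam1 did not pass the filter), with a median of 0.06 in Dll1-3 and 0.0022 in Dll1-5, and their summed signal was 734 to 798 in wild type, 692 to 714 in Dll1-3 and 673 to 679 in Dll1-5. These are dim probes whose signals include the offset, and 5 were well above background on all wild-type channels and 6 on all mutant channels. Flt1 was at -0.85 in both lines and Kdr at -0.34 and -0.32, while the rest lay within 0.12 of wild type. All 10 markers of mural cells, fibroblasts and meninges were measured, with medians of 0.01 in Dll1-3 and 0.04 in Dll1-5. Their summed signal was 10717 to 12025 in wild type, 7971 to 9288 in Dll1-3 and 8663 to 10469 in Dll1-5. Acta2 was at -0.74 and -0.89. The others lay between -0.13 and 0.22 in Dll1-3 and between -0.04 and 0.29 in Dll1-5. The part of these cell types in the Igfbp7 result was not tested.

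Igfbp5, which lies beside Igfbp2 in the mouse genome, did not follow it. The brighter Igfbp5 probe (A_52_P281702, chromosome 1 from 73159938 to 73159997) begins 6092 bases beyond the Igfbp2 probe in the file's coordinates. Wild-type signals were 3725, 3999, 3815 and 4219. Mutant signals were 2671 and 2552 in Dll1-3, below all of these, and 6084 and 5531 in Dll1-5, above all of them. The log2 ratios were -0.48 and -0.65 in Dll1-3 and 0.67 and 0.39 in Dll1-5, with line means of -0.56 ± 0.08 and 0.53 ± 0.14. The difference between lines was 1.096, or 2.14-fold, and it was under a doubling when Dll1-5 replicate 1 was left out, arrays were centred on their medians or all probes of a gene were averaged. Igf1r, Igfbp5 and Igfbp7 were the 3 of 8 genes on opposite sides of wild type on both arrays of each line, beside 10.1% of all genes.

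The second Igfbp5 probe (A_51_P204153, chromosome 1 from 73162475 to 73162534) did not show this split. Its ratios were 0.24 and -0.09 in Dll1-3 and 0.36 and 0.07 in Dll1-5, so the lines overlapped. Its signals were only 159 to 219 in the 8 channels. Together Igfbp5 and Igfbp7 were the 2 of 8 genes at least 2-fold higher in Dll1-5 than in Dll1-3 without overlap of arrays, as were 2.78% of all genes, and 0 of the 8 were so in the opposite direction, as were 1.67%.

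Igfbp3 encodes the main carrier of IGFs in blood. Its brighter probe (A_52_P253179, chromosome 11 from 7101384 to 7101443) was at 0.52 and 0.37 in Dll1-3 against 0.03 and -0.23 in Dll1-5; over both lines this made 0.17 (SD 0.38, n = 2; limma adjusted p = 0.635). Mutant signals were 1388 and 1534 in Dll1-3 and 962 and 934 in Dll1-5, beside 941 to 1190 in wild type, so only the Dll1-3 signals stood above the wild-type range. The second Igfbp3 probe (A_51_P228472, chromosome 11 from 7103259 to 7104268, a span the file lists as 1010 bases) gave 0.17, 0.30, 0.15 and 0.10. Igfbp6 (A_51_P374571, chromosome 15 from 102208693 to 102208753) was at -0.07 and -0.02 in Dll1-3 and 0.04 and -0.13 in Dll1-5. Its signals of 103 to 127 stood just above the negative control spots, whose 95th percentile was 78 to 89 on the same scale.

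The ligand Igf1 gave low signals. The probe with the highest Igf1 signal (A_52_P536434, chromosome 10 from 87886688 to 87886747) gave 82, 97, 72 and 92 in wild type and 87, 101, 85 and 80 in mutant RNA, beside a 95th percentile of 78 to 89 over negative control spots. The scanner software marked this probe as well above background in 4 of 4 mutant and 4 of 4 wild-type channels. Its ratios were 0.08, 0.06, 0.25 and -0.19, with a mean of 0.05 (SD 0.03, n = 2; limma adjusted p = 0.756). The other Igf1 probes (A_52_P306327 and A_51_P147942) had line means between -0.18 and -0.07, and each was well above background in only 2 of 4 mutant channels. Microglia are a known source of Igf1, and 9 of 10 microglia and blood markers were measured (Itgam did not pass), with a summed signal of 998 to 1030 in wild type, 953 to 1005 in Dll1-3 and 947 to 989 in Dll1-5. These probes were dim and their signals include the offset, with 7 well above background on all wild-type channels and 6 on all mutant channels. Mutant and wild-type signals of Igf1 overlapped.

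Igf1r, the receptor, was measured well. Its brighter probe (A_51_P318365, chromosome 7 from 62110989 to 62111048) had wild-type signals of 464, 424, 437 and 410 and mutant signals of 382 and 380 in Dll1-3 and 518 and 502 in Dll1-5. The Dll1-3 signals were below and the Dll1-5 signals above all wild-type signals. The ratios were -0.28 and -0.16 in Dll1-3 and 0.25 and 0.29 in Dll1-5, with a mean over both lines of 0.03 (SD 0.35, n = 2; limma adjusted p = 0.949). The second probe (A_52_P668647, chromosome 7 from 62071948 to 62072007) was at -0.36 and -0.66 in Dll1-3 and at 0.18 and -0.15 in Dll1-5. A further pair of probes, named D930020L01 and A330103N21Rik in the files, names that RefSeq lists as synonyms of Igf1r, were outside the gene name rule and had line means of -0.27 and -0.17 in Dll1-3 and 0.0028 and 0.24 in Dll1-5.

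For 3 binding protein genes the 250 bases before the start of transcription are shown, because these carry the results above: Igfbp2 and Igfbp4 were higher in both lines, and Igfbp7 separated the lines. They come from RefSeq on the GRCm38.p6 build, the first start listed for each gene, 5′ to 3′ on the gene's strand, and all 8 genes had an entry. Capitals mark matches, on either strand, to any of 3 short motifs, none of which overlaps another here. The TATA box, where the transcription machinery is placed, was searched as TATAAA. The box bound by Sp family factors, called the GC box, was searched as GGGCGG. The core of the motif of RBPJ, the DNA-binding factor of Notch signalling, was searched as TGGGAA. The windows are chr1:72824230-72824479 (plus strand), chr11:99040994-99041243 (plus strand) and chr5:77408046-77408295 (minus strand).
Igfbp2: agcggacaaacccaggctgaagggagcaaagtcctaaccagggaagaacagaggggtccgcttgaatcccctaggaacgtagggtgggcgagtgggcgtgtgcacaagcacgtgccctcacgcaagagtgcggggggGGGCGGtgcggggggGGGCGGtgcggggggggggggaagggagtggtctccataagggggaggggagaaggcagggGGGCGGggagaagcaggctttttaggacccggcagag
Igfbp4: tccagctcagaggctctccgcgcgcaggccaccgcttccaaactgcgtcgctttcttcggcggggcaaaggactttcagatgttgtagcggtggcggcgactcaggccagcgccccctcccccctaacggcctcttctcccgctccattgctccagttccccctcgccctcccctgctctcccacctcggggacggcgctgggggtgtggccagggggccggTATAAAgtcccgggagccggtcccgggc
Igfbp7: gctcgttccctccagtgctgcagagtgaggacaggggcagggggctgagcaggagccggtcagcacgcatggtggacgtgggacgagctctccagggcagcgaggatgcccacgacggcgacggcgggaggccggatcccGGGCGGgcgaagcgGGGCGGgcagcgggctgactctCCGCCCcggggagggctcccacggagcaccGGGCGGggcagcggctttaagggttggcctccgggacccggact

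The Igfbp2 window held 3 GC boxes and no TATA box, the Igfbp4 window 1 TATA box that begins 28 bases before the start, and the Igfbp7 window 4 GC boxes. A GC box was found in the same window of 32.9% of 27025 genes, a TATA box in 13% and the RBPJ core in 21.5%. None of the 3 windows printed held the RBPJ core. Among the 8 genes it was found in 1, Igf1, whose match begins 91 bases before the start. The C and G content of the windows was 67.2% for Igfbp2, 69.2% for Igfbp4 and 74% for Igfbp7, beside a median of 52% over all genes. A match is a description of letters in this window and says nothing of whether a factor binds there.

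The rest of the pathway was read from a list of 51 genes, of which 50 were found on the array by name and 49 were tested (Irs2 was not found by name and Igfbp1 did not pass the filter). In limma's fit 0 of the 49 passed the adjusted threshold, the smallest adjusted p being 0.0755, and an unadjusted p under 0.05 was reached by 4 genes upward and 10 downward, beside 12% and 15.5% of all genes. At least doubled on all 4 arrays was 1 of the 49, beside 1.69% of all genes, and at least halved was 1, beside 2.75%, both near the share over all genes. The median of the list over both lines was 0.03, beside 0.0096 over all genes.

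**Figure D3:**
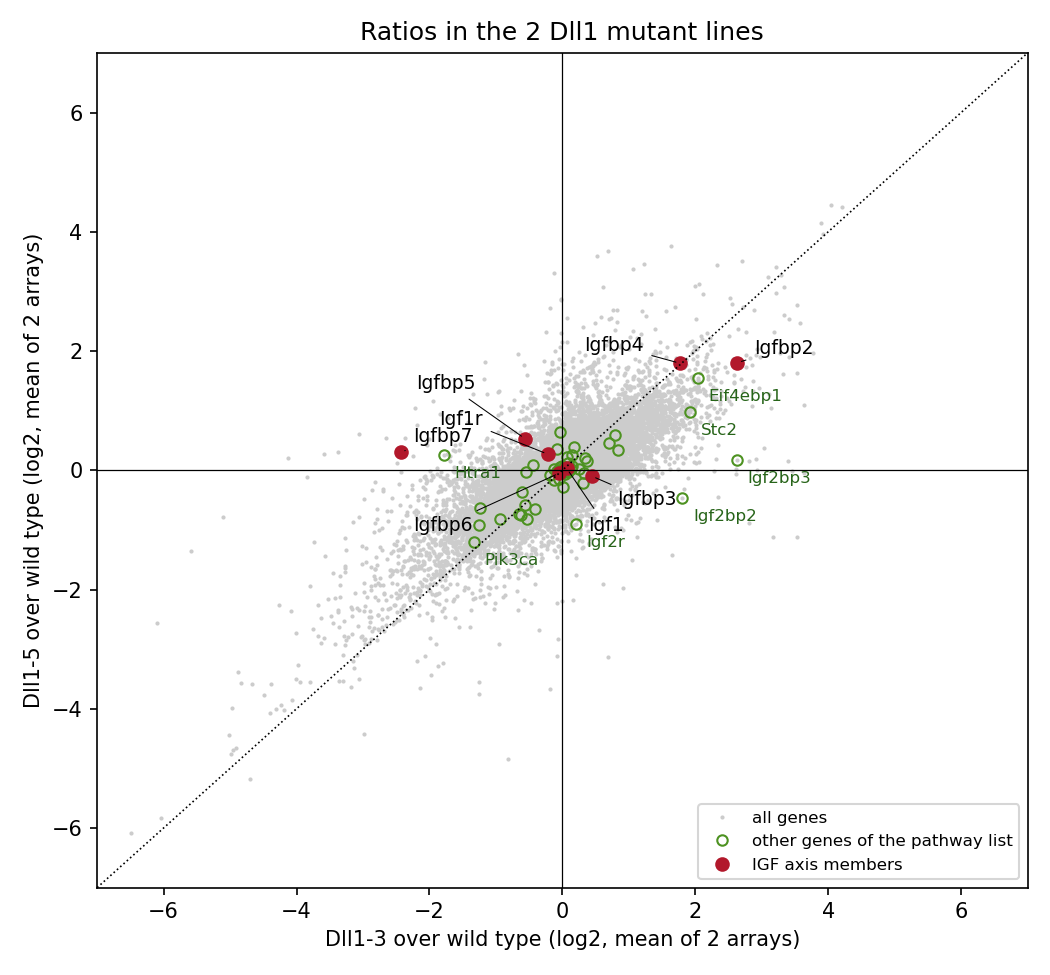
Log2 ratio in Dll1-3 (horizontal axis) and in Dll1-5 (vertical axis), each the mean of 2 arrays, of all genes tested (grey points), the other genes of the pathway list (open green circles) and the 8 members (filled red circles), with a dotted line of equal ratios. Both comparisons may share wild-type RNA. Igfbp4 lies on the line of equal ratios, Igfbp2 to its right, and Igfbp7 and Htra1 at the left near the level of wild type in Dll1-5.

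Among the other ligands and receptors, Igf2 had line means of -0.13 (Dll1-3) and 0.02 (Dll1-5). Those of Insr, the insulin receptor, were 0.08 and 0.12. Igf2r, which removes IGF2 from the cell surface, had values of 0.30 and 0.12 in Dll1-3 and of -0.75 and -1.04 in Dll1-5.

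Among genes that act on the binding proteins, Htra1, a secreted serine protease that cleaves IGF binding proteins, had values of -1.82 and -1.74 in Dll1-3 and of 0.23 and 0.29 in Dll1-5, the same signs as Igfbp7. Stc2, an inhibitor of pappalysin, was at 1.99 and 1.86 in Dll1-3 and 0.93 and 1.03 in Dll1-5, and was well above background in only 1 of 4 wild-type channels. Pappa itself was at 0.13 and 0.02, and was well above background in 3 of 4 channels of each genotype. The line means of Pappa2 were 0.04 and 0.02, those of Stc1 0.07 and 0.04, and those of Adam12 0.80 and 0.60.

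The Igf2bp genes encode proteins that bind IGF2 and other messenger RNAs. Igf2bp3 was at 2.34 and 2.91 in Dll1-3 and at 0.21 and 0.15 in Dll1-5, from a probe well above background in 3 of 4 wild-type channels. Its other probes were at 2.59 and 1.43 in Dll1-3 and at 0.22 and -0.04 in Dll1-5. Igf2bp2 was at 1.65 and 1.96 in Dll1-3 and at -0.44 and -0.48 in Dll1-5. Igf2bp1 was at 0.03 and -0.02. At least doubled on both Dll1-3 arrays were 4 of the 49 genes (Stc2, Igf2bp2, Igf2bp3 and Eif4ebp1), beside 4.46% of all genes, and on both Dll1-5 arrays 1 (Eif4ebp1), beside 3.01%. At least halved on both Dll1-3 arrays were also 4 (Htra1, Pik3ca, Pik3r1 and Pik3r2), beside 6.1%, and on both Dll1-5 arrays 1 (Pik3ca), beside 3.71%.

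Inside the cell, Eif4ebp1, a repressor of translation that mTOR inactivates, was at 2.04 and 2.03 in Dll1-3 against 1.54 and 1.56 in Dll1-5, which averaged 1.79 (SD 0.35, n = 2; limma adjusted p = 0.0755). Its other probe was at 1.25 and 0.54. Pik3ca, a catalytic subunit of PI3 kinase, was at -1.42 and -1.25 in Dll1-3 and -1.29 and -1.13 in Dll1-5, which averaged -1.27 (SD 0.09, n = 2; limma adjusted p = 0.0755), and its other probe at -0.58 and -0.66. Pik3r1 and Pik3r2, regulatory subunits, were at -1.26 and -1.24 in Dll1-3 and at -0.91 and -0.63 in Dll1-5. The 4 Pik3r1 probes kept lay between -1.75 and -0.77 over the line means.

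By distance over the log2 ratios of the 4 arrays, the named genes nearest to Igfbp2 were Trim35 (0.081), Pcolce (0.241) and Cep55 (0.245). Pcolce, which enhances procollagen processing, was at 2.77 in Dll1-3 and 1.74 in Dll1-5. Those nearest to Igfbp7, the member with the lowest mean, were Prkar2b (0.276), Anxa6 (0.349) and Gusb (0.354). Gusb, a lysosomal glucuronidase, was at -2.37 and 0.54.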

How the data were processed

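Total RNA of Dll1-3, Dll1-5 and wild-type neurospheres was hybridised in pairs to 4 arrays, and groups and dyes were taken from the labels. The authors deposited spot and background intensity values as output of Agilent Feature Extraction 8.1.1.1 (submitters' processing notes). A deposited log10 ratio in the same files carries that software's correction for background and dye, per the file headers. Values of the series table were log10 too, and its r with the scanner's mutant over wild-type ratio was -0.962 to -0.954, so its sign was turned. No source used here says how it was processed. Both log10 ratios were alternatives only.

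Signals were corrected with normexp (offset 50), which narrows the ratios of dim genes, and normalised by loess within each array (span 0.3) in limma 3.58.1 and R 4.3.3, with files read by the package data.table (version 1.17.8). Control spots (2256 of 43790) and outlier spots (27 to 115 per array) were left out. A probe was kept (34446 of 41174) if either RNA stood well above background throughout at least 1 line's pair of arrays, and the brightest probe stood for a gene. Gene names followed RefSeq (GRCm38.p6) for 13751 genes by accession, 2475 by symbol and 1360 by synonym, and 5523 kept the file's name. Signals shown are those after loess and Aquantile. Of the probes, 80.0% to 82.1% were well above background per channel. Precision is limited by having 4 arrays.

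Dye-swapped arrays were averaged, and the 2 line means were tested against 0 with lmFit and eBayes (1 residual degree of freedom), with Benjamini-Hochberg adjustment over all 23109 genes at 0.05. This fit was tried on simulated data with the spread between these lines and that between the Dll1-3 arrays. The array spread was added although the spread between lines already holds it. On these simulated data the fit returned the known fold changes but passed none of the changed genes at the adjusted threshold. Far fewer genes were changed there than the 27.5% with limma's unadjusted p under 0.05 here. The adjustment depends on that share, so the simulation cannot say how many changed genes would pass in these data. With 1 residual degree of freedom, no gene passing is not read as no change. Single lines and their difference had no test and were described by size. The named genes were the 8 members with all probes, pathway genes at least 2-fold on both arrays of a line, Igf2, Igf2r and Insr, and the 3 nearest genes of the highest and the lowest member, clone and predicted names passed over; genes named beyond these were chosen after their values were seen. Alternatives covered background, normalisation, filters, probe choice, replicates and moderation. The members and lists were chosen with earlier results of these data known.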

Additional observations from a re-analysis of the deposited data

Results flagged for a closer look

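Igfbp7, Igfbp5 and Igf1r stood on opposite sides of wild type in the 2 lines, on both arrays of each, as did 10.1% of all genes. Dll1-5 was above Dll1-3 by 2.73 for Igfbp7, by 1.096 for Igfbp5 and by 0.49 for Igf1r on the log2 scale. These differences were not tested with lines as replicates. When each of the 4 arrays counted as a sample, which treats repeats of the same pools as replicates on the reading used here, limma's adjusted p for the difference was 0.00109 for Igfbp7, 0.0073 for Igfbp5 and 0.0301 for Igf1r, and 18.2% of all genes passed. It was also 0.00713 for Igfbp2 and 0.0468 for Igfbp3. The second Igfbp5 probe was above wild type on both Dll1-5 arrays and on only 1 of the Dll1-3 arrays, so it did not show the split. Neither did the second Igf1r probe, at 0.18 and -0.15 in Dll1-5, nor the probe D930020L01, at 0.16 and -0.15.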

How the results depend on the processing

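Igfbp2 and Igfbp4 were at least 2-fold on every array used in each of the 18 alternative processings. The signs of the line values of Igfbp2, Igfbp4, Igfbp5, Igfbp7 and Igf1r were kept in all 18. Several of the 18 are no check of either, as they change only the fit (arrays as separate samples, intensity trend) or the mean intensities (Aquantile). Leaving out 1 array is no check either, as only the arrays that remained were counted and each had already met the rule. Nor could Igfbp2 or Igfbp4 be lost at the lower cut of 1.5-fold. The changed filters on dim probes also left these line values as they were. The count past an adjusted p of 0.05 was not stable. Against 0 of all genes and 0 members, limma passed 3081 genes and 2 members at a threshold of 0.1, 994 and 2 with an offset of 10, 336 and 1 with the scanner software's ratios, 1205 and 2 with an intensity trend, and 0 to 1678 genes and 0 to 2 members with 1 array left out, the highest without Dll1-3 replicate 1, with 1645 and 2 without Dll1-5 replicate 2. With arrays as separate samples it passed 7786 genes, or 6719 under a replicate block (the shared replicate number) and 6671 where the line was a random block, and 2 members each time. The replicate number is the dye orientation, and arrays of the same number deviated together across the lines (r = 0.70 across 23109 genes, which are not independent). A line with 1 array left out keeps 1 dye orientation, so results with 1 array left out are not balanced for dye. Members whose lines differed at least 2-fold fell from 2 to 1 with all probes averaged and with median centring, and were 1 to 2 with 1 array left out, 1 without Dll1-5 replicate 1. Of the pathway genes, 2 were at least 2-fold on all 4 arrays in the setting reported. The count was 6 at 1.5-fold, 4 with the deposited table and with the scanner ratios, and 0 with all probes averaged and with median centring. With 1 array left out it was 2 to 4 on the arrays that remained, 4 without Dll1-5 replicate 1. The means over both lines that changed sign were all near 0: Igf1 at -0.060 with probes averaged, -0.039 with median centring and -0.059 to 0.16 with 1 array left out (lowest without Dll1-5 replicate 1), Igf1r at -0.11 with probes averaged and -0.0048 to 0.056 with 1 array left out (lowest without Dll1-3 replicate 2), and Igfbp5 at 0.064 with probes averaged, 0.28 with median centring and -0.087 to 0.055 with 1 array left out (above 0 without Dll1-3 replicate 2 and without Dll1-5 replicate 2). The cause of these changes was not tested.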
